A study of Danio rerio with 6 samples.

Results

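The regions described here are stretches of open chromatin in adult zebrafish blood that lie between genes, within 10000 bp of the nearest transcription start. They are the rows of the authors' annotated table that were annotated as intergenic and whose centre lay at most 10000 bp from a transcription start. There were 1036 such regions among the 9546 of the table, or among the 3378 intergenic ones. The table holds regions that the authors scored as more open in cortisol-treated than in control fish on the same libraries, so a treated excess at these regions is part of how they were chosen. It is given below as a description, without a test.

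Open chromatin was mapped by ATAC-seq, in which a transposase cuts DNA that is not packed away and tags it for sequencing, and reads pile up into peaks where chromatin is open. The 3 cortisol-treated libraries came from blood of adult AB strain zebrafish that had been kept in 1 µM cortisol for the first 5 days of development, and the 3 DMSO-control libraries from fish given the vehicle over the same days. The ages were 12, 11 and 10 months for replicates 1, 2 and 3 in both groups. The paper describes blood pooled from several fish of both sexes for each library while the deposited design speaks of individual adults, so whether a replicate is a pool or a fish is not settled, and the p-values below measure only the spread between these libraries. The paper describes the controls as fish of the same parentage as the treated fish, so libraries of a number may not be independent. Age, replicate number and anything else shared by a pair of libraries cannot be told apart.

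Intergenic open regions close to genes are places where transcription factors and cofactors can bind away from the core promoter, and such elements are known to act on the promoters of nearby genes. The zebrafish red cell keeps its nucleus, and most cells in fish blood are erythroid, so a blood chromatin map is largely one of erythroid cells. Cortisol acts through the glucocorticoid receptor, a transcription factor that binds DNA both at promoters and at elements far from them. An open region between genes is assigned here to the nearest transcription start alone, which does not show that it acts on that gene.

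Each peak carried the MACS2 score given by the authors, which multiplies the -log10 q at the summit by 10. The score grows with sequencing depth, so regions were compared by percentile within a library. Merging the peaks of the 6 libraries gave 153054 regions, 13835 of them with a peak from each library, and a percentile of 90 means that 90% of those shared regions had a lower score in that library. The shortest list, of cortisol-treated replicate 3, held 26905 peaks, and the longest, of control replicate 1, stood apart with 138146. Read totals were not used here. Of the marker genes listed for blood lineages, 27 of 41 erythroid genes had a region anywhere in the table, against 6 of 24 myeloid, 4 of 27 lymphoid and 2 of 16 thrombocyte genes. No share over all genes stands beside these counts, so no lineage is read from them.

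The intergenic regions lay mostly upstream of genes. Upstream of the start were 891 of the 1036 regions (86.0%), with a median distance of 3276 bp, and 145 (14.0%) lay downstream, with a median distance of 6992 bp. Among the 2342 intergenic regions beyond 10000 bp the upstream share was 49.7%. The annotation counts the body of a gene as exon or intron and the first stretch before the start as promoter, so that the intergenic label leaves little room close by on the downstream side. The upstream regions began at 1002 bp and the downstream ones at 2119 bp from the start. The upstream regions crowded towards the gene, with 216 between 1000 and 2000 bp, 189 between 2000 and 3000 bp, 218 between 3000 and 5000 bp and 268 between 5000 and 10000 bp. Downstream the order was the opposite, with 0, 6, 20 and 119 regions in the same windows.

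**Figure D1:**
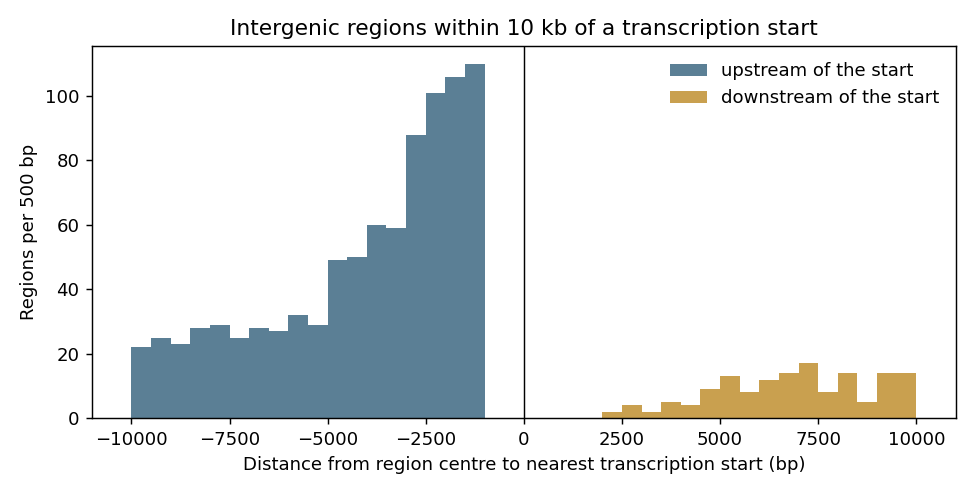
Number of intergenic regions per 500 bp (vertical axis) by the distance of the region's centre from the nearest transcription start in bp (horizontal axis), negative upstream. The 891 upstream regions crowd towards the start and the 145 downstream regions lie mostly beyond 5000 bp.

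The regions were spread over 858 genes and all 25 chromosomes, from 23 regions on chromosome 9 to 67 on chromosome 3. A single region was found at 708 genes and more than 1 at 150 genes, and 19 genes had regions on both sides. Protein-coding genes were nearest to 1011 regions and non-coding RNA genes to 25. A promoter region of the same gene was also in the table for 504 regions (48.6%), at 408 of the 858 genes. The share was 48.1% among upstream and 51.7% among downstream regions. In the authors' table the regions were narrow, with a median width of 370 bp and a range from 200 to 1395 bp. The medians there were 387 bp for promoter regions and 355 bp for intergenic regions farther out.

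Most of the regions were open in every library. A peak was found in all 6 libraries at 947 of the 1036 regions (91.4%), in 5 libraries at 54, in 4 at 22, in 3 at 7 and in 2 at 6. Control replicate 1, with the longest list, had no peak at 69 regions, control replicate 2 at 49 and control replicate 3 at 12, while the treated replicates 1, 2 and 3 had none at 9, 0 and 4. The regions had to be scored higher in treated fish to enter the table, so more missing peaks in controls are part of the choice. Over the 947 regions with a peak throughout, the median percentile was 66.2, 68.6 and 68.3 in the treated replicates and 62.7, 63.3 and 67.9 in the controls.

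The intergenic regions differed widely in openness. By mean percentile over the 3 controls, 112 of the 947 (11.8%) lay at 90 or above, 189 between 75 and 90, 351 between 50 and 75, 229 between 25 and 50 and 66 below 25. Taller regions were wider, with a median width of 508 bp in the highest band and 275 bp in the lowest. Within a library, Spearman's rho between peak width and percentile over the 947 regions had its lowest value, 0.329, in cortisol-treated replicate 2 and its highest, 0.539, in control replicate 2. Regions of a library share its depth, and the rho is given without a p. The side of the gene and the presence of a promoter region varied little between the bands, with upstream shares from 83.3% to 87.8% and promoter shares from 47.0% to 53.6%. The gap between the highest and the lowest of the 6 percentiles of a region had a median of 3.01 points in the highest band and 29.6 points in the lowest. The bands were cut on the control percentiles that enter this gap, and the highest band leaves little room above. The regions were also chosen for a treated excess, so the gaps are only a description.

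Compared with other kinds of region in the same table, the nearby intergenic regions stood above introns and level with distant intergenic regions. Their median percentile exceeded that of the 981 intron regions with a peak throughout in 6 of 6 libraries, by 3.21 ± 1.17 points (mean ± SD over libraries). The two-sided exact sign-flip permutation test over libraries gave p = 0.03125, the smallest that 6 libraries allow, and 0.0938 after Benjamini-Hochberg adjustment over the 6 comparisons of this kind, so it did not pass a threshold of 0.05. This test takes the 6 libraries as independent, and with the 3 replicate numbers as the units the exact permutation test cannot go below p = 0.25. The difference from introns was 1.41 points at authors' scores of at least 20 and 1.21 points with percentiles over the whole list of a library. All these regions entered the table by the authors' score, which comes from the same libraries as the percentiles. The median score was 25.1 at nearby intergenic regions, 22.7 at introns and 24.4 at distant intergenic regions. The part of the score in these differences was not tested. Against the 2145 intergenic regions beyond 10000 bp the difference was 0.0934 ± 0.767 points, with 3 libraries on either side of 0 (exact permutation test, p = 0.8125). The sign changed when cortisol-treated replicate 3, control replicate 1 or control replicate 3 was left out, with values down to -0.248 points. The regions are fixed, so these tests cover libraries and not other regions of the same kind.

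The order of intergenic and promoter regions went with the replicate number. In replicate 1, at 12 months, the median of the intergenic regions lay above that of the 4294 promoter regions, by 1.33 points in the treated and 1.66 points in the control library. In replicate 2, at 11 months, the differences were -0.654 and -2.50 points, and in replicate 3, at 10 months, -2.74 and -1.90 points. The treated and control libraries thus had the same sign within each replicate number. Over the 6 libraries the mean difference was -0.801 ± 1.92 points (SD; exact permutation test, p = 0.34375). The treated and control lists of replicate 1 held 49583 and 138146 peaks, those of replicate 2 56695 and 63072, and those of replicate 3 26905 and 29401, and the part of list length in this order was not tested. Peak widths went only partly the same way, since the treated and control libraries of replicate 1 differed in sign. The median width at intergenic minus promoter regions was -9 and 11 bp in replicate 1, treated before control. It was -23 and -11 bp in replicate 2 and -31 and -35 bp in replicate 3 (mean of -16.3 bp; exact permutation test, p = 0.125).

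**Figure D2:**
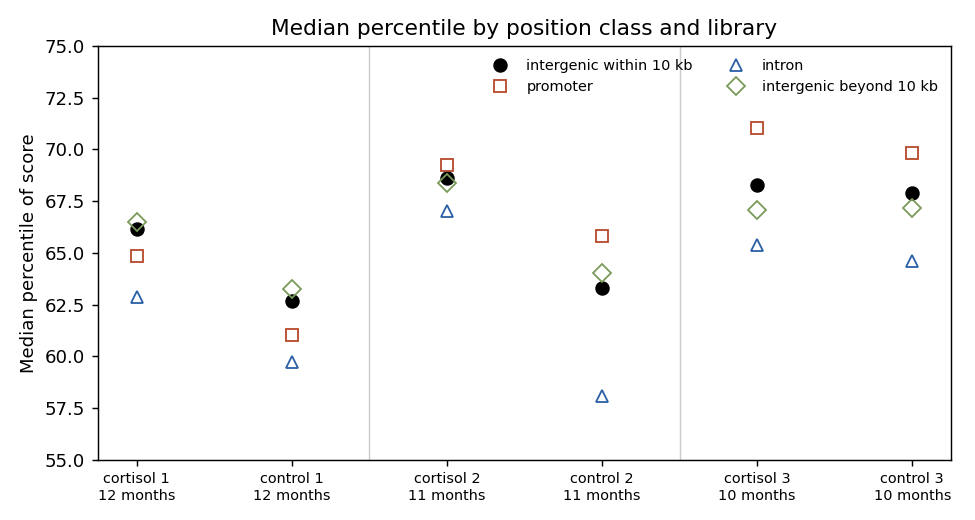
Median percentile of score within a library (vertical axis, cut to 55 to 75) of 4 kinds of region in each of the 6 libraries, in order of replicate number and age. Nearby intergenic regions (filled circles) lay above promoters (squares) in both libraries of replicate 1 and below them in the other 4, and above introns (triangles) in all 6.

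Within the set, regions whose gene also had a promoter region in the table ranked higher than the others. The promoter regions entered the table by a score from these same 6 libraries, so the split is not independent of the values compared. A gene without a promoter region in the table may still have an open promoter. The median percentile of the 462 regions with a promoter partner exceeded that of the 485 without in 6 of 6 libraries, by 2.16 ± 1.18 points on average, from 0.672 points in control replicate 2 to 3.86 points in control replicate 1 (exact permutation test, p = 0.03125, adjusted 0.0938, not past 0.05). The difference was 1.29 points for regions within 5000 bp and 0.802 points with percentiles over the whole list of a library. The side of the gene showed no such order. Upstream regions had medians equal to those of downstream regions in 2 libraries, a higher median in 1 and a lower one in 3, with a mean difference of -0.417 ± 0.955 points (exact permutation test, p = 0.375). By distance, the mean of the 6 library medians was 66.2 for the 296 regions up to 2500 bp, 67.8 for the 306 from there to 5000 bp, 64.7 for the 182 up to 7500 bp and 64.3 for the 163 up to 10000 bp. The differences between these windows were not tested.

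The highest-scoring intergenic regions were among the most open in every library. The authors' score and the percentiles come from the same libraries, so this is given as a description. The region 1209 bp upstream of *nlk2* (NM_001113485; chromosome 15 of GRCz10, 30276395 to 30277013), a nemo-like kinase gene of Wnt and MAP kinase signalling, had the highest authors' score in the set (184.4) and the rank of 2 in the whole table. Its percentiles were 99.6, 99.7 and 99.8 in the treated replicates 1, 2 and 3 and 99.1, 99.0 and 99.8 in the controls. The treated range and control replicate 3 thus overlapped. At the region 1577 bp upstream of *stat2*, a transducer of interferon signals (chromosome 6, 39162704 to 39163285), the percentiles were 99.5, 99.5 and 99.7 in treated and 99.1, 99.0 and 99.7 in control libraries. The 12 regions with the highest scores all lay above a percentile of 97 in all 6 libraries. Besides *nlk2* and *stat2*, they were nearest to *cep57l1*, *dus1l*, *zranb1b*, *snrnp48*, *hlfa*, *hpda*, *rorca*, *si:dkey-28b4.7*, *tle3b* and *tle3a*.

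Among these 12 regions the groups were separate only at *dus1l* and *rorca*, both with treated higher, beside 8.34% of the 947 intergenic regions and 5.88% of the 13835 shared regions. At the region 4036 bp upstream of *dus1l*, a tRNA dihydrouridine synthase gene (NM_199617; chromosome 3, 36088922 to 36089409), the percentiles were 98.5, 99.1 and 98.9 in treated and 98.3, 97.7 and 98.3 in control libraries. At the region 1156 bp upstream of *rorca*, a gene of the ROR nuclear receptors (NM_001082819; chromosome 8, 18863633 to 18864279), they were 99.4, 99.3 and 99.4 against 99.0, 98.6 and 99.0. The differences in mean were 0.743 and 0.477 points, with little room above the controls. Both copies of the Groucho corepressor gene *tle3* were in this group, with regions 1640 bp upstream of *tle3a* and 1725 bp upstream of *tle3b*. In at least 1 library the peak at each of them ran into the promoter region, so those values are partly those of the promoter.

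**Figure D3:**
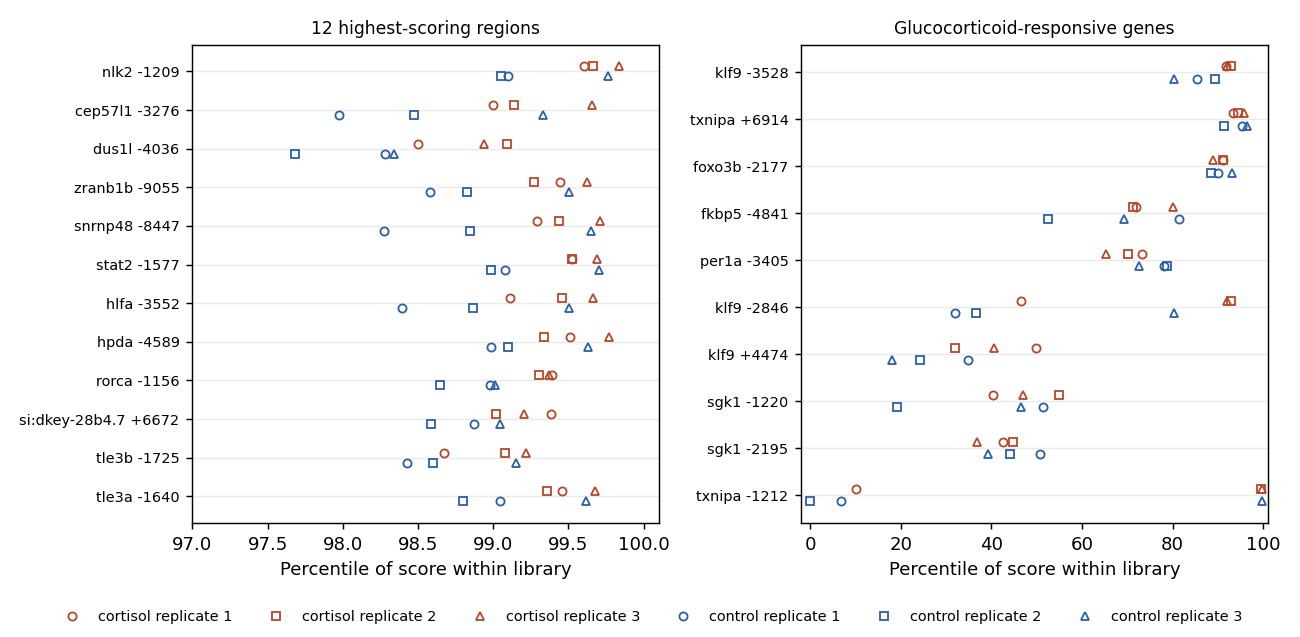
Percentile of score within a library (horizontal axes) at the 12 highest-scoring intergenic regions (left, axis from 97 to 100) and at those of glucocorticoid-responsive genes (right, axis from 0 to 100), with the distance to the transcription start in bp. Symbols mark replicates 1 (circle), 2 (square) and 3 (triangle), red for cortisol and blue for control. Treated and control libraries are separate at *dus1l*, *rorca* and the *klf9* region 3528 bp upstream. In some libraries that *klf9* region shares its peak with the one 2846 bp upstream.

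The regions at the lowest end of the set were narrow in the authors' table, but the library peaks over them were not always narrow. The 8 regions with the lowest mean percentile in controls were those of *cyb5r3*, *erbb2ip*, *ndufb9*, *tdh*, *id3*, *gatad2ab*, *phtf2* and *zgc:77041*. Their widths in that table ran from 202 to 267 bp. The library peaks were 384 to 919 bp wide at *phtf2* and 391 to 904 bp at *gatad2ab*, against 203 to 397 bp at *erbb2ip*. At *cyb5r3* (7515 bp downstream), which encodes cytochrome b5 reductase, the enzyme that returns methaemoglobin to its working form, the percentiles were 33.4, 1.46 and 33.9 in treated and 8.21, 4.48 and 3.21 in control libraries. Cortisol-treated replicate 2 thus lay below all 3 controls. At *id3*, an inhibitor of bHLH transcription factors, they were 19.6, 22.8 and 14.5 against 17.7, 2.35 and 11.2, with an overlap of the groups. The groups overlapped at *zgc:77041* too. At the other 5 no control library reached a treated one, beside 8.34% of the 947 intergenic regions and 5.88% of the shared regions. All 8 were picked for their low control values, so nothing is read from this count. At *phtf2*, for example, the percentiles were 18.5, 33.6 and 35.0 in treated and 12.9, 10.6 and 8.42 in control libraries.

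At the widest end, 5 regions reached 1000 bp: those of *fam83d* (1395 bp), *ndufb2* (1176 bp), *zglp1* (1101 bp), *arg2* (1095 bp) and *si:dkey-222f8.3* (1003 bp). The next was at *cdk8* (984 bp), a kinase of the Mediator complex, with percentiles of 90.5, 91.2 and 89.0 in treated and 92.1, 89.2 and 90.2 in control libraries. At *fam83d* they were 88.2, 92.1 and 91.9 against 90.8, 87.7 and 90.8. Treated and control libraries overlapped at both.

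For 438 regions the promoter region of the same gene also had a peak in all 6 libraries, so that both could be placed in the same library. The intergenic region lay below the promoter region in more than 55% of these pairs in every library, from 55.3% in cortisol-treated replicate 1 to 58.9% in cortisol-treated replicate 3. The order was the same across libraries in most pairs, with 190 intergenic regions below the promoter in all 6 libraries and 132 above it in all 6. A gene with several regions enters these counts more than once. Leaving out regions that share a peak with another region of the table left 384 pairs, of which 176 were below and 122 above in all 6. Intergenic regions at a mean control percentile of 90 or above with a promoter region under 50 numbered 17.

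Among the pairs with the largest excess over the promoter, 3 genes are described here that were chosen after the values were seen. At *dus1l* the promoter region had percentiles of 38.1, 38.9 and 50.03 in treated and 32.02, 2.35 and 47.7 in control libraries, while the region 4036 bp upstream, as given above, stood at 97.7 or more throughout. At *pik3cg*, which encodes a phosphoinositide 3-kinase subunit known from leukocytes (NM_213306; chromosome 4, 3342136 to 3342547), the region 2078 bp upstream had 95.5, 94.0 and 93.9 in treated and 93.3, 94.7 and 94.7 in control libraries. Its promoter region had 36.0, 23.9 and 26.9 against 5.45, 22.4 and 24.5. Another region 4757 bp upstream of *pik3cg* lay between 85.6 and 89.4. At *nipa1*, a magnesium transporter gene, the region 3075 bp upstream lay between 90.6 and 93.9, and the promoter region between 10.4 and 29.1. The intergenic regions of *dus1l*, *pik3cg* and *nipa1* were therefore far more open than their promoters in all 6 libraries, whatever the treatment.

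**Figure D4:**
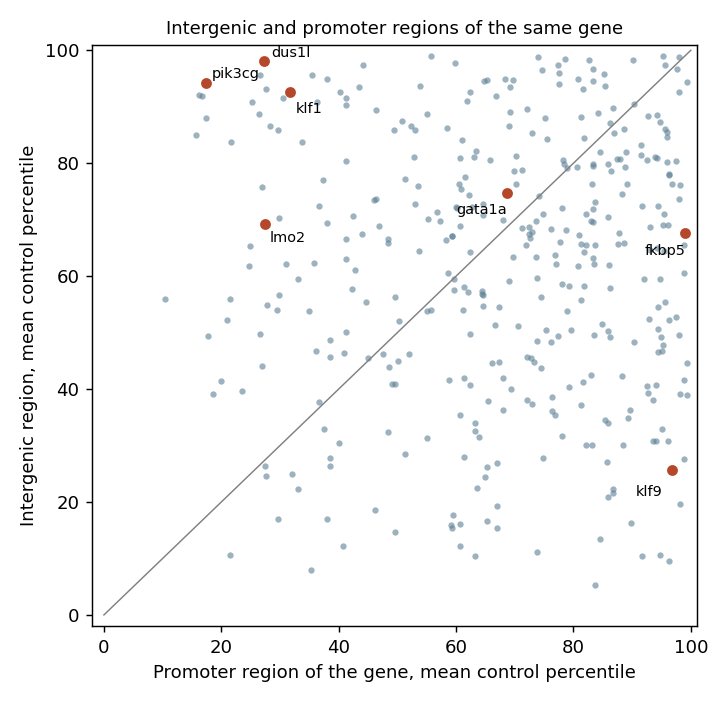
Mean percentile over the 3 control libraries of the intergenic region (vertical axis) against that of the promoter region of the same gene (horizontal axis) for the 384 regions that share no peak with another region. Points above the diagonal, such as *dus1l*, *pik3cg* and *klf1*, were more open between genes than at the promoter, and *klf9* (the region 4474 bp downstream) and *fkbp5* lie far below it.

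Erythroid genes had 21 of these regions, at 12 of the 41 listed genes, all 21 with a peak in every library. Their mean control percentile had a median of 69.2, against 63.4 for all 947 regions, and ran from 26.3 to 95.7. The value of 95.7 is that of a peak shared by 2 regions of *sptb*, so it enters more than once. The same median was 72.4 for myeloid genes and 67.7 for the glucocorticoid-responsive genes described below. It was 55.7 for genes of JAK-STAT, IRF and NF-kB signalling, and the only lymphoid region was at 34.0. The genes include the master regulators *gata1a*, *tal1*, *lmo2* and *klf1*, the globin locus factor *nfe2*, the erythropoietin receptor *epor*, the transferrin receptor *tfr1a*, the band 3 anion exchanger *slc4a1a*, the ammonia channel *rhag*, the spectrin *sptb*, the heme synthesis gene *hmbsa* and the Kruppel-like factor *klf17*. Myeloid genes had 2 regions, both at *mpeg1.1*, the perforin-like gene of macrophages, and lymphoid genes 1, at *ikzf1*. Of the 16 thrombocyte genes 0 had such a region. These counts too stand without a share over all genes.

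At *klf1*, *lmo2* and *gata1a* an intergenic region was more open than the promoter in all 6 libraries, but as many erythroid regions lay below their promoter throughout as above it. At *klf1*, the erythroid Kruppel-like factor (NM_130936), the region 1939 bp upstream (chromosome 6, 7891775 to 7892361) had percentiles of 95.04, 95.9 and 95.4 in treated and 91.1, 91.5 and 95.3 in control libraries. Its promoter region had 41.0, 61.3 and 52.4 against 26.0, 24.1 and 45.1. At *lmo2*, a LIM-domain partner of GATA1 and TAL1 (NM_131111), the region 2029 bp upstream (chromosome 18, 38305733 to 38306153) had 82.6, 86.6 and 82.7 in treated and 60.4, 68.1 and 79.0 in control libraries, so that the groups did not overlap. The promoter region of *lmo2* had 28.9, 28.1 and 46.3 against 49.0, 1.52 and 31.6. Another region 3936 bp upstream of *lmo2* had 43.2, 38.3 and 24.5 against 51.5, 0.267 and 27.2, above the promoter region in only 3 libraries. At *gata1a* (NM_131234; chromosome 11, 25185420 to 25185795), the region 4365 bp upstream had 80.9, 83.9 and 83.8 against 77.9, 65.2 and 81.3, and the promoter region 77.3, 77.5 and 81.1 against 64.8, 64.03 and 77.4. The excess at *gata1a* was small but present in all 6 libraries.

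Of the 12 erythroid regions with a promoter partner, 5 lay above it in all 6 libraries and 5 below it in all 6. Among all 438 pairs, 132 lay above and 190 below in all 6. Those above were at *klf1*, *lmo2* (2029 bp), *gata1a*, *epor* and *rhag*, and those below at *slc4a1a*, *tal1* (both regions) and *klf17* (3792 and 9394 bp downstream). At *tal1*, a bHLH regulator of blood formation, the region 5283 bp upstream had 75.9, 76.9 and 72.1 in treated and 75.2, 67.0 and 77.4 in control libraries. Its promoter region had 86.0, 90.2 and 90.2 against 82.5, 76.2 and 92.1. At *slc4a1a* the region 2458 bp upstream lay between 76.1 and 84.3 and the promoter region between 95.2 and 97.9.

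At *rhag* the percentiles went with the replicate number more than with treatment. The region 1672 bp upstream of *rhag* (NM_212845; chromosome 20, 14159662 to 14159889) had 94.0 and 96.9 in the treated and control libraries of replicate 1, 79.5 and 90.7 in those of replicate 2, and 65.4 and 78.6 in those of replicate 3. Control lay above treated in all 3 replicate numbers, although the region was taken from a table of regions scored higher in treated fish. The promoter region of *rhag* had 41.0 and 47.1, 57.1 and 57.3, and 56.2 and 60.8 in the same order. The erythroid spectrin gene *sptb* had 4 regions within 4383 bp on chromosome 17, from 2860 to 6811 bp upstream, and no promoter region in the table. The regions 2860 and 3366 bp upstream shared a peak in every library, with 96.3, 97.2 and 97.1 in treated and 93.7, 96.0 and 97.3 in control libraries. The region 4852 bp upstream had 52.1, 48.2 and 25.7 against 17.7, 20.7 and 47.1.

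**Figure D5:**
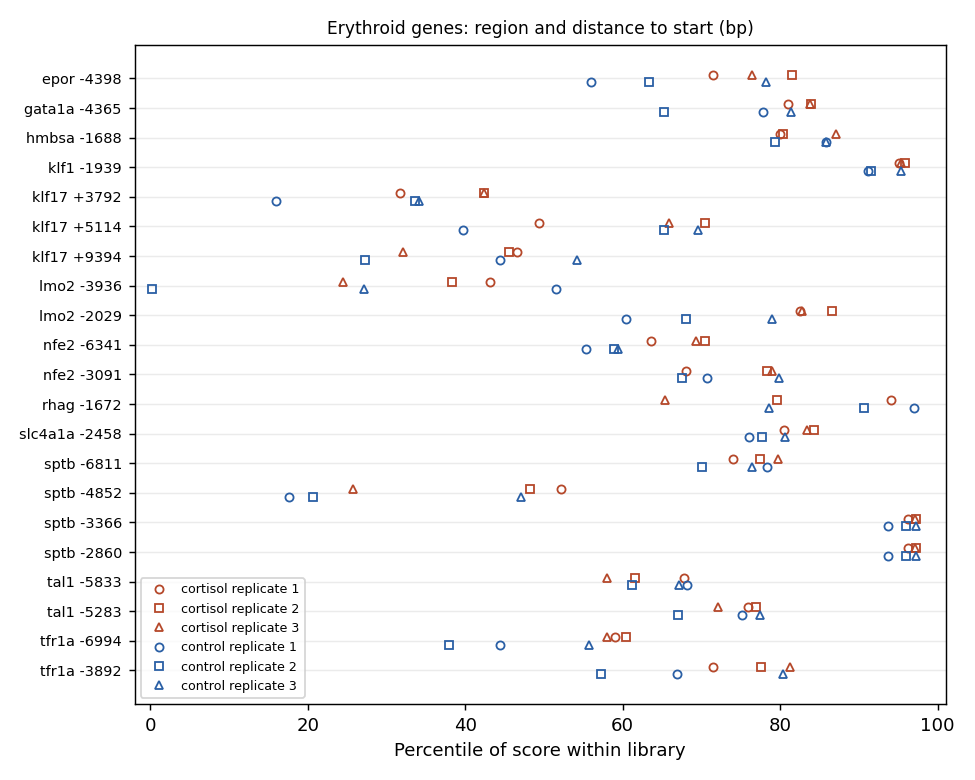
Percentile of score within a library (horizontal axis) at the 21 intergenic regions of erythroid genes, with the distance to the transcription start in bp. Symbols mark replicates 1 (circle), 2 (square) and 3 (triangle), red for cortisol and blue for control. The groups are separate at *lmo2* (2029 bp upstream), *nfe2* (6341 bp) and *tfr1a* (6994 bp) and overlap at the other 18 regions.

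Groups that did not overlap were found at 3 of the 21 erythroid regions, all with treated above control, beside 79 of the 947 intergenic regions (8.34%) and 5.88% of the shared regions. Besides *lmo2* they were the region 6341 bp upstream of *nfe2*, with 63.6, 70.4 and 69.3 in treated and 55.3, 58.9 and 59.4 in control libraries, and that 6994 bp upstream of *tfr1a*, with 59.0, 60.4 and 58.1 against 44.4, 37.9 and 55.7. The mean percentile was higher in treated libraries at 17 of the 21, with a median difference of 3.77 points, beside 737 of 947 and 2.79 points for all the intergenic regions. The others were *hmbsa*, *rhag*, *tal1* (5833 bp upstream) and *klf17* (9394 bp downstream).

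Glucocorticoid-responsive genes had 10 regions at 6 of the 40 listed genes: *klf9*, *fkbp5*, *sgk1*, *per1a*, *txnipa* and *foxo3b*. At *klf9*, a Kruppel-like factor induced by the glucocorticoid receptor (NM_001128729), 3 regions flanked the gene on chromosome 5. The region 3528 bp upstream (25471332 to 25471880) had 91.8, 92.9 and 92.1 in treated and 85.4, 89.3 and 80.4 in control libraries, with no overlap. Groups separate with treated higher were found at 8.34% of the 947 intergenic regions and 5.88% of the shared regions. The region 2846 bp upstream (25472115 to 25472461) had 46.5, 92.9 and 92.1 against 32.02, 36.5 and 80.4. In treated replicates 2 and 3 and control replicate 3 the regions 3528 and 2846 bp upstream shared a peak. Their values there are the same and belong to neither region alone. The region 4474 bp downstream (25479424 to 25479793) had 49.9, 32.01 and 40.7 against 34.8, 24.1 and 18.0, where treated replicate 2 lay below control replicate 1.

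At *fkbp5*, a chaperone of the glucocorticoid receptor (NM_213149), the region 4841 bp upstream (chromosome 6, 41093495 to 41093868) had 72.0, 71.2 and 80.0 in treated and 81.3, 52.4 and 69.2 in control libraries, so that control replicate 1 was the highest of all. Its promoter region lay between 98.4 and 99.7. At *sgk1*, a kinase of ion transport, the region 1220 bp upstream had 40.3, 54.9 and 47.0 against 51.5, 19.1 and 46.4. The region 2195 bp upstream had 42.5, 44.8 and 36.9 against 50.7, 44.0 and 39.3, a difference in mean of -3.26 points. The promoter region of *sgk1* lay between 99.1 and 99.7. At *per1a*, a period gene of the circadian clock, the region 3405 bp upstream had 73.2, 70.3 and 65.4 in treated and 78.1, 78.7 and 72.5 in control libraries. The difference in mean, treated minus control, was -6.84 points, with an overlap between treated replicate 1 and control replicate 3. At *foxo3b*, a forkhead factor of stress and insulin signalling, the region 2177 bp upstream had 91.2, 91.2 and 89.0 against 90.04, 88.5 and 93.2.

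The thioredoxin-interacting gene *txnipa* took very different values with the extent of its peak. Its region 1212 bp upstream had 99.6, 99.9 and 99.7 in treated replicates 2 and 3 and control replicate 3, where the peak ran on into the promoter region. It had 10.1 in treated replicate 1 and 6.77 in control replicate 1, and no peak in control replicate 2. Its region 6914 bp downstream had 93.4, 94.5 and 95.8 in treated and 95.3, 91.4 and 96.4 in control libraries. Of the 8 glucocorticoid-gene regions that could be set beside a promoter region, 7 lay below it in all 6 libraries and *foxo3b* lay above it in 3. Among all 438 such pairs, 190 lay below and 132 above in all 6. The 7 were at *klf9*, *sgk1*, *fkbp5* and *txnipa*, and several regions of *klf9* and *sgk1* were set against the same promoter region. These promoter regions were all near the top of the percentiles, so nothing is read from the count. In the whole set, 89 regions shared a peak with another region of the table in at least 1 library, and 14 of them with a promoter region. Of the 9 glucocorticoid-gene regions with a peak throughout, 6 had a higher mean percentile in treated libraries, beside 77.8% of the 947 intergenic regions and 59.0% of the shared regions. The study singled out *klf9* and *fkbp5* on the same libraries. It also measured their expression in blood samples of different cohorts and a histone mark at their promoters.

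Genes of JAK-STAT, IRF and NF-kB signalling had 7 regions at 6 of 41 listed genes. Next to *stat2*, the most open was that of *il6st*, the signalling receptor subunit of the IL-6 family, 7594 bp upstream (chromosome 10, 5820194 to 5820759), with 98.0, 98.8 and 98.4 in treated and 97.4, 98.2 and 99.0 in control libraries. At the region 1872 bp upstream of *socs2*, a feedback inhibitor of cytokine signalling, the percentiles were 32.6, 36.9 and 45.5 against 8.21, 17.5 and 34.2. Treated and control libraries overlapped at all 7, beside 856 of the 947 intergenic regions (90.4%). The 7 also included *stat6*, *irf3* and 2 regions at *irf2*. At *mpeg1.1* the regions 3772 and 5749 bp upstream had 88.0, 89.8 and 87.4 against 76.7, 82.9 and 91.9, and 64.5, 67.6 and 68.9 against 58.9, 57.3 and 66.8.

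Among the genes with the most regions were *anp32a*, with 5, and *sptb*, *klf11a*, *mir21-1* and *aqp12*, with 4 each. At *anp32a*, an acidic nuclear phosphoprotein of histone binding, 3 regions lay upstream and 2 downstream within 13765 bp of chromosome 7. The regions 1008 and 1555 bp upstream had 95.6, 93.4 and 95.4 in the treated libraries, where both shared a peak. The promoter region of *anp32a* had the same treated mean, 94.8, so these treated values are also those of the promoter. In controls the regions 1008 and 1555 bp upstream had 93.7, 71.1 and 94.6, and 56.7, 71.1 and 94.6. The promoter region had a control mean of 94.4. At *klf11a*, a relative of *klf9* with 2 regions on either side, the region 1196 bp upstream had 80.3, 72.8 and 74.6 against 74.8, 67.0 and 54.7, so that treated replicates 2 and 3 lay below control replicate 1. At *aqp12*, an aquaporin gene, only the region 4036 bp upstream had separate groups, with 40.3, 52.0 and 50.8 against 14.4, 36.5 and 28.1. Separate groups with treated higher were found at 8.34% of the 947 intergenic regions and 5.88% of the shared regions.

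MicroRNA genes were nearest to 22 regions at 15 genes, of which 21 had a peak in all 6 libraries and 2 had a promoter region of the same gene in the table. At *mir21-1* regions lay on both sides. The region 2911 bp upstream (chromosome 10, 28315148 to 28315506) had 65.5, 62.5 and 62.4 in treated and 61.0, 39.2 and 42.3 in control libraries, with no overlap. Such a separation with treated higher was found at 8.34% of the 947 intergenic regions and 5.88% of the shared regions. The region 5327 bp downstream of *mir21-1* had 75.2, 71.4 and 76.5 against 73.4, 77.7 and 79.7. At *mir142a*, a microRNA of blood cells named here after its values were seen, the region 1097 bp upstream had 83.2, 88.8 and 91.5 against 85.0, 84.9 and 88.9.

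Over the 947 regions with a peak throughout, the mean percentile was higher in treated than in control libraries at 737 regions (77.8%), beside 59.0% of the 13835 shared regions. The median difference over regions, treated minus control, was 2.79 points, with quartiles of 0.267 and 7.997 points. Treated and control libraries were fully separate with treated higher at 79 regions (8.34%), beside 5.88% of the shared regions, and with treated lower at 12 (1.27%), beside 2.90%. The count of 79 became 113 without control replicate 2, 304 without control replicate 3 and between 120 and 211 without each of the others in turn. Fewer libraries are more easily separate, but each setting leaves out a single library, and why these counts differ was not tested. With percentiles taken over the whole list of a library, the count was 1 and the difference of the group medians turned from 3.05 to -2.42 points. The regions were chosen by this contrast, so nothing is read from these counts, and in bulk blood a shift in cell makeup and a change in chromatin per cell cannot be told apart. Within replicate numbers the median percentile of the set was 3.47, 5.30 and 0.383 points higher in the treated library for replicates 1, 2 and 3. The spread of a region between replicates was wider in controls, with a median SD of 6.88 points against 4.15 in treated libraries. Control replicate 1 gave the lowest of the 6 percentiles at 351 regions and control replicate 2 at 323, against 66 for control replicate 3. A choice of regions by treated excess favours those with low values in some controls. No spread or such count over all shared regions stands beside these values, so nothing is read from them either.

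At the distance limit, the last regions inside were those of *fkrp* (9977 bp upstream), *zgc:112356* (9966 bp downstream) and *yipf4* (9954 bp downstream), and the first outside were those of *gnb3b* (10003 bp upstream), *herpud2* (10012 bp) and *zgc:113295* (10018 bp). At *fkrp* the percentiles were 94.1, 95.6 and 93.8 in treated and 94.96, 94.4 and 95.2 in control libraries. At *yipf4* they were 45.9, 46.4 and 43.3 against 49.8, 55.1 and 47.7, with all treated libraries below all controls. Such a separation was found at 1.27% of the 947 intergenic regions and 2.90% of the shared regions. The *yipf4* peak was not always separate from that of another region of the table, so these values are not those of this region alone. At *gnb3b* they were 49.9, 57.4 and 59.3 against 45.4, 42.9 and 49.0. The percentiles of the 3 regions just inside the limit ran from 1.66 to 95.6, and those of the 3 just outside from 25.7 to 60.3.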

How the data were processed

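Blood ATAC-seq libraries were trimmed by the authors with Trimmomatic 0.32, truncated, aligned to GRCz10 with Bowtie 1.0.0 and stripped of mitochondrial reads, and MACS2 2.1.1.20160309 called peaks per library without a local background. The score deposited for each peak, 10 times -log10 q, was left unscaled. The deposited comparison, a bdgdiff log10 likelihood ratio annotated with HOMER 4.8, holds no replicate error. It was used for which regions were chosen, to order and name regions by score, and for the score limit among the alternatives. Overlapping peaks (at least 1 bp) were merged across libraries. In each library a region took its best overlapping peak, as a mid-rank percentile among the regions with a peak in all 6, and 0 where there was none. Class medians per library were compared by two-sided exact sign-flip permutation over 6 libraries, adjusted over 6 tests. The scripts were tested on simulated data. Python 3.11.15, numpy 2.4.6 and pandas 2.3.3 were used. Alternatives were the reference set of the percentile, overlap, score and distance limits, merged regions, leaving out each library, and a replicate block. Regions were named if among the 12 highest scores, the 8 highest or lowest in controls, the 6 widest, the 6 genes with the most regions, a marker or pathway list, or the 3 nearest the distance limit. Names outside this rule are marked. A gene that the rule names is not reported here. The regions and lists were chosen with earlier results of these data known. The motif shares planned were not run, and sequences were not analysed here. The depth of the libraries is unknown, so no counting intervals are given.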

Additional observations from a re-analysis of the deposited data

Results flagged for a closer look

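Differences of opposite sign at different ages were seen for the median percentile of nearby intergenic regions relative to other kinds of region. Relative to promoters, both libraries at 10 months and both at 11 months were negative and both at 12 months positive. The mean at 10 months was 3.81 points below that at 12 months (a difference of -3.81), and the mean at 11 months differed from that at 12 months by -3.07 points. Relative to intergenic regions beyond 10000 bp, both libraries at 10 months were positive, with a mean of 0.965 points. Both at 12 months were negative, with a mean of -0.443 points, a difference of 1.41 points. At 11 months the libraries differed in sign, with 0.246 points in the treated and -0.730 points in the control library. With 2 libraries per age these differences were not tested, and age cannot be told apart from replicate number.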

How the results depend on the processing

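Of 102 recomputed values, 88 kept their direction and their side of the threshold, or moved by less than the limit set for values without a test. Nothing passed the threshold in any setting, and with 5 or fewer libraries nothing could. The comparison with intergenic regions beyond 10000 bp changed sign, to -0.0470 points with 50% overlap and -0.335 points at scores of at least 20, and lay between -0.248 and 0.706 points without each library in turn. Upstream minus downstream became 0.388 points at scores of at least 20. When percentiles were taken over every peak of a list rather than the shared regions, the treated minus control difference of the medians turned from 3.05 to -2.42 points and the regions with all treated above all controls fell from 79 to 1. That count was 48 at a limit of 5000 bp, where fewer regions are tested, and from 113 to 304 without each library in turn, the most without control replicate 3. The cause of the changes of sign was not tested. The difference from introns, 3.21 points, was 1.41 at scores of at least 20, 1.21 over the whole lists and 4.55 without regions that share a peak with another, an alternative chosen after seeing the data. The difference by promoter partner, 2.16 points, was 1.29 within 5000 bp, 0.802 over the whole lists and 1.66 without regions that share a peak with another. The difference from promoters was -0.0479 points and that in peak width -33.4 bp within 5000 bp. With the replicate block, the mean of each pair of libraries gave the same differences (3.21 points against introns, adjusted p = 0.6), and the smallest p before adjustment is 0.25 (exact permutation test). Same-numbered libraries deviated together by correlations of 0.580, 0.0827 and 0.574 over regions and other pairs by up to 0.173, so the correlations alone do not pair replicate 2. Same-numbered libraries share an age, and the block changed no call.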
